A study of Mus musculus with 6 samples.

Results

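The genes described here are 10 receptors and bridging proteins through which phagocytes take up apoptotic cells, namely Mertk, Axl, Gas6, Pros1, Mfge8, Cd36, Timd4, Stab1, Scarb1 and Tgm2. They were chosen by symbol, as the rows of the count table whose Ensembl gene ID carries 1 of these symbols in GENCODE vM21, and all 10 were found among the 21780 genes listed. The cells were viable pancreatic CD45+CD11b+ myeloid cells, sorted on day 7 after male and female C57BL/6 mice, 6 to 8 weeks old, had received PBS or 1 mg of WGP into the peritoneum. WGP are whole β-glucan particles from baker's yeast, which phagocytes ingest. Each group had 3 libraries of poly-A RNA, with 35334645, 38419377 and 40580936 counts in PBS replicates 1 to 3 and 38240913, 43341834 and 41990018 counts in WGP replicates 1 to 3. The gate takes all CD11b+ leukocytes, so each library holds a mixture of macrophages, monocytes and granulocytes, and the labels do not tie a library to a named animal or sex. The leukocyte marker Ptprc and the integrin Itgam, which the gate uses as CD45 and CD11b, were abundant in all 6 libraries, at 171.7 and 48.6 CPM per kilobase in PBS and 280.4 and 84.3 CPM per kilobase in WGP on average. Both rose in WGP, with log2 fold changes of 0.71 and 0.79, and passed in all 19 alternatives. Itgam shares 3450 exon bases with an annotated gene on the same strand, so its counts are uncertain.

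A few libraries stood apart within their groups. PBS replicate 1 had 0 counts over 4 Y-linked genes, whereas PBS replicates 2 and 3 had 8972 and 10063 and the WGP libraries had 0, 0 and 1. PBS replicate 1 also carried more B cell RNA, with 2499 CPM summed over the 6 B cell markers against 653 and 378 CPM in PBS replicates 2 and 3, and less resident macrophage RNA, with 12601 CPM over 15 markers against 21794 and 25611 CPM. WGP replicate 2 held 1855 CPM summed over 8 fibroblast markers and 68.9 CPM over 6 mesothelial markers, against at most 55.1 and 3.98 CPM in the other WGP libraries. Results were therefore also computed without these libraries.

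Removal of dying cells, or efferocytosis, begins when phosphatidylserine appears on the outer face of the dying cell's membrane. Some receptors, such as the Timd4 product TIM-4 and stabilin-1, bind this lipid directly, whereas the receptor tyrosine kinases MerTK and Axl and the integrins bind it through soluble bridges such as Gas6, protein S and MFG-E8. In tissues this uptake is a main task of resident macrophages, and ingested lipid is then handled through nuclear receptors and cholesterol exporters.

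Of the 10 genes, Tgm2 rose in the WGP libraries, 5 (Gas6, Pros1, Cd36, Timd4 and Stab1) fell, and 4 (Mertk, Axl, Mfge8 and Scarb1) did not pass edgeR's quasi-likelihood test, where passing means a p of 0.05 or less after Benjamini-Hochberg adjustment. All 10 passed the filter on low counts. Over all 14429 genes tested 14.4% passed in either direction, 7.54% as rises and 6.81% as falls, in numbers 1088 and 983 genes. Scaling by library totals alone gave 895 rises and 1186 falls, with the median log2 fold change of all genes at -0.16 in place of -0.05. The median log2 fold change of the 10 genes was -1.47. With a change of 1 or more log2 units required as well, 9.49% of all genes passed, and with the threshold on adjusted p at 0.01 8.16% passed. The same 1 rise and 5 falls were counted among the 10 genes under both rules. The 3 WGP libraries lay entirely above or below the 3 PBS libraries for 8 of the 10 genes, which holds for 32% of all genes tested. A positive log2 fold change means more in WGP. Levels are given as TMM-scaled CPM, divided by the length of the longest transcript where genes are compared with each other. In these bulk libraries, fewer cells of a type and less RNA per cell cannot be told apart.

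**Figure D1:**
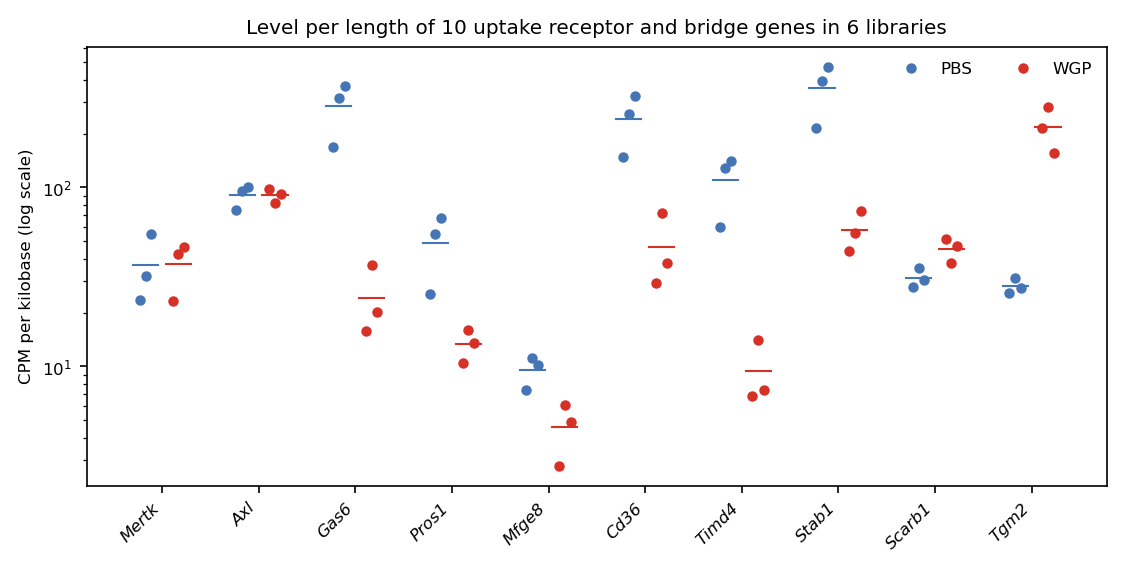
Level of each of the 10 genes in CPM per kilobase of the longest transcript, on a log scale, with a point for each of the 3 PBS and 3 WGP libraries and a line at each group's mean. Gas6 and Timd4 lie far lower and Tgm2 far higher in WGP, whereas the points of Mertk and of Axl overlap between the groups.

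The bridges that link phosphatidylserine to the TAM kinases were lower after WGP. Gas6 (ENSMUSG00000031451, chromosome 8, 13465374 to 13494490 in GRCm38) encodes a vitamin K-dependent protein that activates Axl and MerTK. Its levels were 427, 809 and 940.1 CPM in the PBS libraries and 40.0, 94.0 and 51.5 CPM in the WGP libraries. Every PBS library was thus above every WGP library, with PBS replicate 1 the lowest of its group and WGP replicate 2 the highest of its own. Gas6 fell 11.7-fold on the fitted scale, a log2 fold change of -3.55 (standard error 0.37, edgeR adjusted p = 0.000166). Pros1 (ENSMUSG00000022912, chromosome 16, 62854307 to 62929346) encodes protein S, an anticoagulant that also activates MerTK. Its levels of 83.6, 181 and 223 CPM in PBS and 34.6, 52.7 and 44.9 CPM in WGP did not overlap, with PBS replicate 1 again the lowest of its group. Pros1 had a log2 fold change of -1.88 (standard error 0.32, edgeR adjusted p = 0.00295).

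Mfge8 (ENSMUSG00000030605, chromosome 7, 79133768 to 79149060) encodes MFG-E8, which links phosphatidylserine to αv integrins. It was the least abundant of the 10 genes per length in both groups, at 17.2, 26.0 and 23.7 CPM in PBS and 6.49, 14.2 and 11.3 CPM in WGP. All 3 WGP values lay below the PBS values, but the log2 fold change of -1.06 (standard error 0.34) did not pass, with an adjusted p of 0.0674 from edgeR. Without WGP replicate 2, the library with fibroblast and mesothelial counts, it was -1.32 with an edgeR adjusted p of 0.0382, and without PBS replicate 1 it was -1.22 with 0.0444. Over all 19 alternatives its adjusted p lay between 0.00842 and 0.400, so that its side of the threshold varied with the setting.

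The TAM receptors themselves did not pass the test. Mertk (ENSMUSG00000014361, chromosome 2, 128698956 to 128802894), the kinase most tied to apoptotic cell uptake by macrophages, had 102, 137 and 238 CPM in PBS and 99.3, 182 and 201 CPM in WGP. The groups overlapped and each spanned a wide range. Its log2 fold change was 0.02, with a 95% interval from -0.70 to 0.74 and an adjusted p of 0.982 from edgeR. Axl (ENSMUSG00000002602, chromosome 7, 25757273 to 25788705), which Gas6 binds most tightly, had 321, 409 and 428 CPM in PBS and 417, 349.5 and 394 CPM in WGP. The libraries of the groups were interleaved. Its log2 fold change was 0.00, with a narrower 95% interval from -0.35 to 0.35 and an edgeR adjusted p of 0.997. The sign of both values changed with the scaling and the libraries used, so neither carries a direction, and for Mertk the interval is wide on both sides of 0. The related kinase gene Tyro3 was nearly without counts, with 62, 34 and 0 in the PBS libraries and 0, 32 and 0 in the WGP libraries.

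Set against each other within a library, ligand and receptor levels moved apart. The summed level per length of Gas6 and Pros1, divided by that of Mertk, Axl and Tyro3, was 1.94, 2.91 and 2.81 in the PBS libraries and 0.217, 0.424 and 0.243 in the WGP libraries. The ligands thus went from above the receptors in each PBS library to below them in each WGP library, an 8.66-fold difference between the group means, given without a test because the ratio was chosen after the values were seen.

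Timd4 and Stab1, whose products bind phosphatidylserine directly, were lower in WGP. Timd4 (ENSMUSG00000055546, chromosome 11, 46810800 to 46844332) encodes TIM-4, a tethering receptor typical of long-lived resident macrophages. It had 131, 281 and 305 CPM in PBS and 14.9, 30.5 and 16.0 CPM in WGP. The 6 libraries had the same order as for Gas6, with PBS replicate 1 the lowest PBS library and WGP replicate 2 the highest WGP library. The log2 fold change was -3.55 (standard error 0.37, edgeR adjusted p = 0.000165). Stab1 (ENSMUSG00000042286, chromosome 14, 31139013 to 31168641) encodes stabilin-1, a large scavenger receptor that also clears modified lipoproteins and matrix fragments. It had 1709, 3131 and 3771 CPM in PBS and 355, 447 and 594 CPM in WGP, with no overlap. Its log2 fold change was -2.62 (standard error 0.30, edgeR adjusted p = 0.000271). Per length, Stab1 had 359 ± 132 CPM per kilobase in PBS and 58.2 ± 15.0 in WGP (SD, n = 3).

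Of the class B scavenger receptor genes, Cd36 fell and Scarb1 did not pass. Cd36 (ENSMUSG00000002944, chromosome 5, 17781690 to 17888801) encodes a receptor for oxidised phospholipids, fatty acids and thrombospondin that takes part in uptake of dying cells. It had 501, 874 and 1100.4 CPM in PBS and 99.4, 244 and 129 CPM in WGP, again separate groups. Its log2 fold change was -2.39 (standard error 0.36, edgeR adjusted p = 0.00151). Scarb1 (ENSMUSG00000037936, chromosome 5, 125277087 to 125341094) encodes SR-BI, the receptor for high-density lipoprotein, which also binds phosphatidylserine. It had 86.5, 110.3 and 94.6 CPM in PBS and 160.0, 117 and 145 CPM in WGP. All WGP values were above the PBS values, with a small gap between PBS replicate 2 and WGP replicate 2. The log2 fold change of 0.54 (standard error 0.17) did not pass, with an adjusted p of 0.0579 from edgeR, and without WGP replicate 2 it was 0.65 with an edgeR adjusted p of 0.0334. Over the 19 alternatives the adjusted p of Scarb1 lay between 0.0236 and 0.213.

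Tgm2 (ENSMUSG00000037820, chromosome 2, 158116402 to 158146436) encodes transglutaminase 2, which crosslinks proteins and at the cell surface acts as a partner of the β3 integrin in apoptotic cell uptake. It was the only gene of the 10 that rose. Its levels were 92.5, 112 and 98.1 CPM in the PBS libraries and 777, 1015 and 562 CPM in the WGP libraries. The lowest WGP library was far above the highest PBS library. The change was 7.79-fold, a log2 fold change of 2.96 (standard error 0.22, edgeR adjusted p = 2.33e-05). Tgm2 shares 370 exon bases with Rprd1b and 633 with a non-coding gene, both on the other strand, and the strand setting of the counting is not given in the sources used here. Rprd1b had 1250, 1006 and 1420 counts in PBS and 1710, 1787 and 1172 in WGP, beside 3556, 4350 and 4014 counts of Tgm2 in PBS and 28643, 42076 and 23008 in WGP. The non-coding gene has no counts in the table, and the effect of these overlaps was not tested. Gas6 shares 34 and Stab1 112 exon bases with a gene on the other strand.

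The falls were smaller in a fit with a covariate for Y-linked counts, which in effect sets the WGP libraries against PBS replicate 1. The log2 fold change was then -2.79 for Gas6, -0.92 for Pros1, -1.67 for Cd36, -2.68 for Timd4 and -1.88 for Stab1, with edgeR adjusted p values up to 0.0333. These p-values rest on a PBS arm of 1 library and take their spread from the other libraries. Tgm2 was at 3.08, and Mertk and Axl, which did not pass, were at 0.66 and 0.27. With both PBS replicate 1 and WGP replicate 2 left out, a choice made after the data were seen, the log2 fold changes were -4.26 for Gas6, -4.25 for Timd4, -3.12 for Cd36, -2.87 for Stab1, -2.35 for Pros1 and 2.67 for Tgm2. The part of sex in these results was not tested, since only PBS replicates 2 and 3 carry Y-linked counts.

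The order of the 10 genes by level per length changed between the groups. In PBS it ran from Stab1 (359 CPM per kilobase) over Gas6 (285), Cd36 (243), Timd4 (110.0), Axl (90.5), Pros1 (49.1), Mertk (36.9), Scarb1 (31.4) and Tgm2 (28.0) to Mfge8 (9.56). Stab1, Gas6 and Cd36 had overlapping ranges over their 3 libraries, as did Timd4 with Axl and each neighbouring pair from Pros1 to Tgm2. In WGP the order ran from Tgm2 (218) over Axl (90.7), Stab1 (58.2), Cd36 (46.3), Scarb1 (45.6), Mertk (37.4), Gas6 (24.3), Pros1 (13.3) and Timd4 (9.40) to Mfge8 (4.58). There Tgm2 and Axl each stood clear of the next gene, whereas neighbours from Stab1 to Timd4 overlapped. The order depends on the length used. Over the union of exons Gas6 stood first in PBS with 284.7 CPM per kilobase and Stab1 next with 279.0, and Scarb1 had 11.4 CPM per kilobase in PBS and 16.6 in WGP.

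Ratios within a library, which do not depend on scaling, were compared for 3 pairs of related genes by an exact two-sided permutation test, which cannot give a p below 0.1 with 3 libraries against 3. The ratio of Gas6 to Pros1 per length was 6.63, 5.80 and 5.48 in PBS and 1.50, 2.31 and 1.49 in WGP, a difference of -1.78 in mean log2 ratio (exact permutation p = 0.1, adjusted over the 3 pairs 0.15). Gas6 thus fell further than Pros1 in each WGP library, by a margin that a test of this size cannot place under 0.1. The ratio of Cd36 to Scarb1 was 5.27, 7.21 and 10.6 in PBS and 0.565, 1.89 and 0.806 in WGP, a difference of -2.96 (exact permutation p = 0.1, adjusted 0.15). The ratios depend on the lengths used, though the difference does not. Scarb1 has 3093 bases in its longest transcript and 8500 in the union of exons. Over the union, mean levels in WGP were 43.8 CPM per kilobase for Cd36 and 16.6 for Scarb1. The ratio of Mertk to Axl was 0.314, 0.332 and 0.550 in PBS and 0.236, 0.517 and 0.507 in WGP, with overlapping groups and a difference of 0.04 (exact permutation p = 1, adjusted 1).

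The genes with the profile most like that of Gas6 were taken as those with the smallest root mean square difference of centred log2 CPM over the 6 libraries, among 11833 candidates. They were Timd4 (0.0989), Folr2 (0.118), Reps2 (0.141), Tppp (0.201) and Cbr2 (0.212), of which Timd4 is itself a member. Gas6 and Timd4 had nearly equal log2 fold changes, and which was larger varied between alternatives. Folr2, which encodes the folate receptor β of resident macrophages, had 481, 822 and 981 CPM in PBS and 39.0, 82.9 and 57.0 CPM in WGP, and it shares 975 exon bases with an antisense gene. These genes were picked for their likeness to Gas6, so their ratios to it are not given. Cd36 and Pros1 fell less than Folr2 did. Because Folr2 was picked for its likeness to Gas6, this restates that both fell less than Gas6. Per length, Cd36 to Folr2 went from 0.369, 0.377 and 0.397 in PBS to 0.903, 1.04 and 0.800 in WGP, and Pros1 to Folr2 from 0.0633, 0.0802 and 0.0827 to 0.323, 0.232 and 0.287. Set against Csf1r, the receptor gene shared by monocytes and macrophages, Gas6 went from 0.393, 0.383 and 0.413 to 0.0263, 0.0671 and 0.0347. With the ligand to receptor ratio above, 14 such ratios were computed, all chosen after the values were seen and without a test, and 4 of them are given here.

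The wider pathway was followed in 94 genes, of which 89 were tested. Of these 24 rose, 10 fell and 55 did not pass, beside 7.54% and 6.81% of all genes tested, and their median log2 fold change was 0.27 against -0.05 for all genes. Among 20 other uptake receptors 6 rose and none of the 19 tested fell in edgeR's test, though Itgb5 passed as lower in 6 of 19 alternatives and Havcr2 in 1. Scarf1, which encodes a scavenger receptor that binds phosphatidylserine through C1q, had 17.0 ± 6.82 CPM in PBS and 104 ± 18.3 in WGP (SD, n = 3), a log2 fold change of 2.61 (edgeR adjusted p = 0.000202). The class A scavenger receptor genes Msr1 and Marco had 1.27 and 2.27, and Olr1, for the lectin-like receptor of oxidised lipoprotein, had 2.83. The CD300 receptor genes Cd300lf and Cd300a, whose products bind phosphatidylserine, had 1.94 and 0.72. Cd300a lost the call in 9 of 19 alternatives, Msr1 without PBS replicate 2 or WGP replicate 2, and Marco without PBS replicate 2, where its edgeR adjusted p was the highest of its alternatives, 0.0736. Megf10 was at 0 counts in all libraries.

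**Figure D2:**
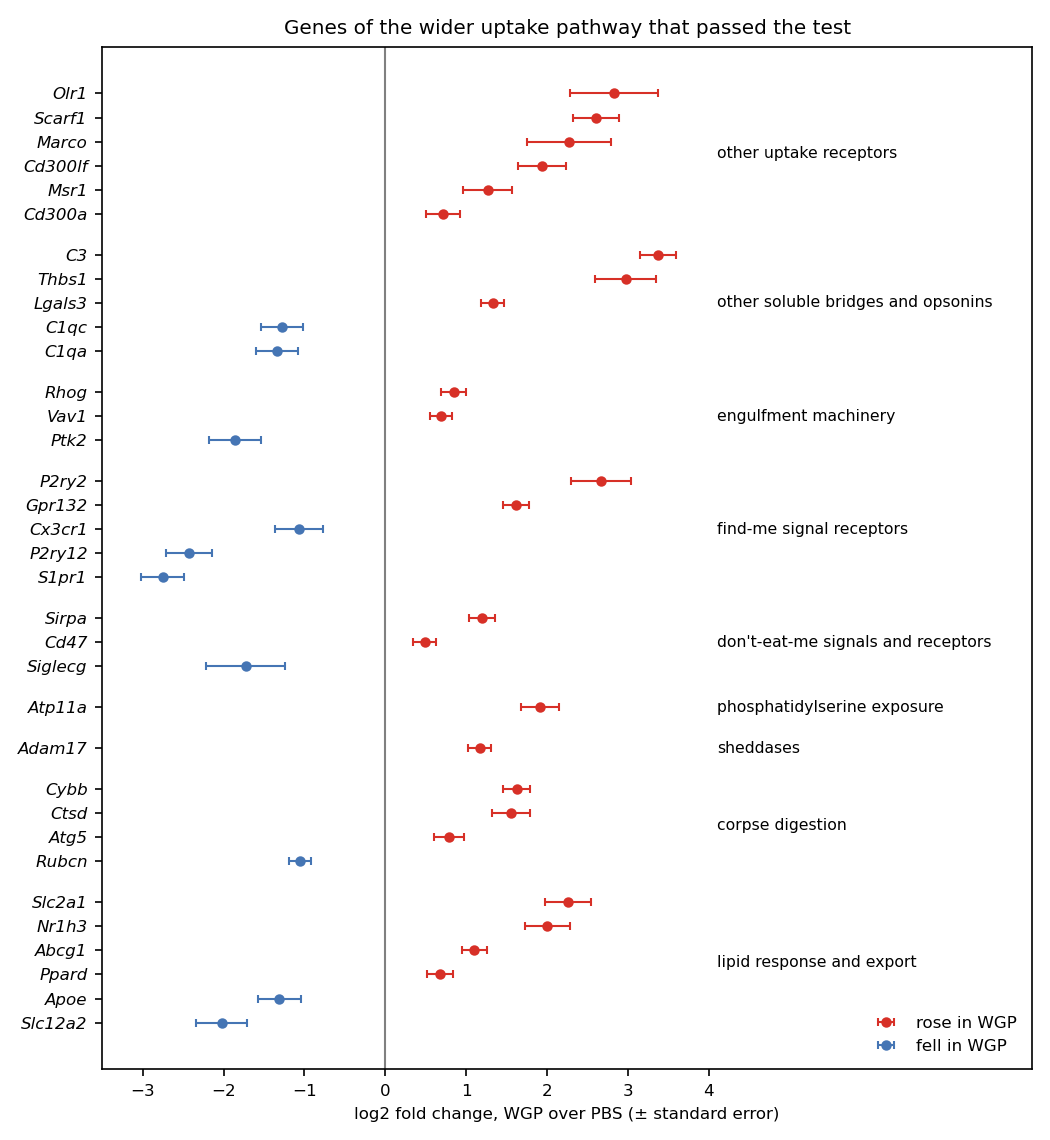
Log2 fold change of WGP over PBS, with its standard error, for the 34 genes of the wider uptake pathway that passed edgeR's test, grouped by role. All 6 other receptors that passed lie to the right of 0, up to 2.83 for Olr1, whereas find-me signal receptors lie on both sides, from -2.75 for S1pr1 to 2.67 for P2ry2.

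Of 11 other soluble bridges and opsonins 10 were tested, of which 3 rose and 2 fell. C3, the central complement protein whose fragments coat dying cells, rose from 326 ± 80.1 to 3375 ± 505 CPM (SD, n = 3), a log2 fold change of 3.37 (edgeR adjusted p = 1.49e-05). Thbs1, for thrombospondin-1, which can bridge dying cells to CD36 and αv integrins, had 2.97, and 2.31 without WGP replicate 1, its highest library. Lgals3, for galectin-3, had 1.33. The C1q genes had the other sign. C1qa fell from 2859 ± 800 to 1128 ± 302 CPM (SD, n = 3), a log2 fold change of -1.34 (edgeR adjusted p = 0.00578), and C1qc had -1.28, while C1qb had -0.78 with an edgeR adjusted p of 0.0585 and did not pass, though it passed as lower in 8 of 19 alternatives. With Y-linked counts as a covariate, C1qa and C1qc did not pass either, at edgeR adjusted p values of 0.0756 and 0.107. Tulp1 was at 0 counts in all libraries.

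Find-me signals are molecules that dying cells release to draw phagocytes. Of their 6 receptor genes in the list 2 rose and 3 fell. P2ry2, for a receptor of extracellular ATP and UTP, had 2.67, and Gpr132, for a receptor of lysophospholipids, had 1.62. S1pr1, for the sphingosine 1-phosphate receptor, had -2.75, P2ry12, for an ADP receptor, had -2.42, and Cx3cr1, for the fractalkine receptor, had -1.07. Cx3cr1 lost the call in 5 of 19 alternatives, with edgeR adjusted p values up to 0.231. Of 6 don't-eat-me genes Sirpa, for the CD47 receptor that restrains phagocytosis, rose by 1.20 on the log2 scale and Cd47 itself by 0.49, and Siglecg had -1.73. Cd47 lost the call in 10 of 19 alternatives and Siglecg in 7, among them the fit without PBS replicate 1, the library rich in B cell markers.

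Of 12 engulfment genes 2 rose, 1 fell and 9 did not pass. Rhog and Vav1, for a small GTPase and an exchange factor upstream of Rac, had 0.85 and 0.69, whereas Ptk2, for focal adhesion kinase, had -1.86. Of 5 phosphatidylserine exposure genes tested Atp11a, for a flippase that returns the lipid to the inner leaflet, rose by 1.92 on the log2 scale, and the scramblase genes Xkr4 and Xkr9 were at 0 counts in all libraries. Of the 2 sheddases Adam17, whose product cleaves MerTK from the cell surface, had 157 ± 13.9 CPM in PBS and 353 ± 23.1 in WGP (SD, n = 3), a log2 fold change of 1.17 (edgeR adjusted p = 0.000382). Adam10 had 0.28 and did not pass.

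Of 16 corpse digestion genes tested 3 rose and 1 fell. Cybb, for the catalytic subunit of the phagocyte NADPH oxidase, had 1.63, the lysosomal protease gene Ctsd had 1.55 and the autophagy gene Atg5 had 0.79, which lost the call in 4 of 19 alternatives. Rubcn, whose product Rubicon is needed for LC3-associated phagocytosis, fell from 116 ± 2.58 to 55.8 ± 1.38 CPM (SD, n = 3), a log2 fold change of -1.05 (edgeR adjusted p = 0.000550). Ctsd shares 808 exon bases with another gene on the same strand. Rab17 was at 0 counts in all libraries. Of 13 genes listed for lipid response and export, a list that also holds glucose and ion transporter genes, 4 rose and 2 fell. Nr1h3, for the oxysterol sensor LXRα, had 2.01 and the cholesterol exporter gene Abcg1 had 1.10. Abca1, of the same list, did not pass, and its log2 fold change lay between -1.06 and 0.31 over the alternatives. It passed without PBS replicate 1, and with both PBS replicate 1 and WGP replicate 2 left out. The glucose transporter gene Slc2a1 had 2.26, and Ppard, which lost the call in 4 of 19 alternatives, had 0.67. Apoe, for the lipid carrier apolipoprotein E, fell from 11436 ± 3669 to 4603 ± 997 CPM (SD, n = 3), a log2 fold change of -1.31 (edgeR adjusted p = 0.00761), and Slc12a2, for an ion cotransporter, had -2.02. With Y-linked counts as a covariate Apoe did not pass, with an edgeR adjusted p of 0.0854.

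Markers of resident macrophages moved in the same direction as Gas6, Pros1, Timd4, Stab1 and Cd36. Over all genes tested 6.81% fell and 7.54% rose, which is the share to set beside the counts of each marker list. Of the 15 in the list 9 fell, none rose and 6 did not pass in edgeR's test, with a median log2 fold change of -1.34 and summed levels of 12601, 21794 and 25611 CPM in PBS and 7699, 9846 and 9160 CPM in WGP. The log2 fold changes were -4.66 for Lyve1, -4.60 for Cd209f, -4.50 for Cd163, -3.67 for Folr2, -2.91 for Mrc1 and -5.44 for Vsig4, which had 997, 1652 and 3526 counts in PBS and 0, 70 and 75 in WGP. The call of Vsig4 was lost in limma-voom. The transcription factor gene Maf had -1.56. General macrophage genes did not pass, with -0.43 for Adgre1, -0.31 for Csf1r and -0.02 for Cd68, and Cd5l had 1.74 and did not pass. Adgre1 and Csf1r passed as lower without PBS replicate 1 and had positive values that did not pass, 0.21 and 0.43, with the covariate for Y-linked counts. Cd5l passed as higher in 4 of 19 alternatives. C1qa, the most abundant gene of the list per length, and C1qc are also bridges above.

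Markers of Ly6C-high monocytes moved the other way, as did Tgm2. Of 8 in the list 5 rose, none fell and 3 did not pass in edgeR's test, with summed levels of 1849, 2130 and 3051 CPM in PBS and 7013, 8210 and 6497 CPM in WGP. Vcan had 3.89, Ly6c2 2.85, Plac8, the most abundant per length, 2.09, Ccr2 1.98 and Hp 1.86, and Fn1 and Chil3 had 1.37 and 0.22 and did not pass. The part of a changed mixture of macrophages and monocytes in the results for the 10 genes was not tested.

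Markers of other cell types were also counted. Acinar cells lack CD45 and most B cells lack CD11b, so the gate is meant to leave both out. All 6 B cell markers fell, with summed levels of 2499, 653 and 378 CPM in PBS and 156, 177 and 89.1 CPM in WGP and Cd79a the most abundant per length. All 8 acinar markers tested fell, led by Ctrb1 in level per length, with sums of 2192, 5203 and 1363 CPM in PBS and 400, 610.4 and 364 CPM in WGP, and Amy2a2 was at 0 counts. Of 8 genes of the dissociation response, of which Fos was the most abundant per length, 5 fell and 3 did not pass, with sums of 24509, 29493 and 22565 CPM in PBS and 11298, 8323 and 11098 CPM in WGP. Of 4 platelet and megakaryocyte markers tested 1, Pf4, fell, the list's sums were 265, 384 and 454 CPM in PBS and 17.3, 15.5 and 21.9 CPM in WGP, nearly all of it from Pf4 in PBS, and the defining genes Gp1ba and Gp9 were at 0 counts in all libraries. Of 10 neutrophil markers 2, Csf3r and Cxcr2, rose and 1, Mmp9, fell, with sums of 6576, 3763 and 2441 CPM in PBS and 2703, 2871 and 2839 CPM in WGP. The median log2 fold change of the list was -0.94. S100a9, the most abundant per length, did not pass, with values from -1.58 to -0.10 over the alternatives, though it passed as lower without PBS replicate 3. The part of these differences in the results for the 10 genes was not tested.

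In the remaining lists few genes passed. With 7.54% rises and 6.81% falls over all genes tested, 1 call in lists this small is not a result for a cell type. Large peritoneal macrophage markers, led by Cxcl13 in level per length, counted 1 rise among 8, Alox15, which lost the call in 7 of 19 alternatives. Cxcl13 passed as lower in 3 alternatives, among them the fit without WGP replicate 2. Prg4 and Garnl3 passed as lower in 2 each, and F5 as higher in 5. Endothelial markers, led by Flt1, counted 2 rises among 8, Flt1 and Kdr. T cell markers, led by Cd4, counted 1 rise among 5 tested, Cd8a, which lost the call in 8. Cd8a had 0 counts in PBS and 61, 122 and 61 in WGP. Cd4 had the other sign, with log2 fold changes from -1.52 to -0.68 over the alternatives, and passed as lower in 2 of them. Flt1 and Kdr had log2 fold changes of 2.96 and 2.52. Of the same list Cdh5, Egfl7, Esam and Tek had negative values and Vwf and Cldn5 positive ones, and none of these passed. Vwf had 1.25 and passed with DESeq2 and with at least 10 counts in every library. Cldn5 had 34 counts in WGP replicate 3 and none elsewhere. Kdr lost the call with the covariate for Y-linked counts. Eosinophil markers counted 1 fall among 7, Ear2, which lost the call in 8, conventional dendritic cell markers 1 among 8, Cd209a, which lost the call with the covariate for Y-linked counts, and NK cell markers 1 among 6, Gzma, which lost it in 4, each the most abundant of its list per length. Of the eosinophil list, Ccr3 passed as higher in 3 alternatives. Il5ra passed as lower with DESeq2, with the replicate block and without PBS replicate 3. The dendritic cell gene Clec9a passed as higher in 3 alternatives. No gene passed in edgeR's test among 8 fibroblast markers, led by Col3a1 with 771, 32622 and 483 counts in the WGP libraries, among 6 mesothelial markers, led by Upk3b, among 4 erythroid markers tested, led by Hbb-bs, or among 5 islet markers tested, led by Sst, with Ppy at 0 counts. Without WGP replicate 2, the fibroblast genes Col3a1, Dcn, Dpt and Pdgfra and the globin genes Hbb-bs, Hba-a1 and Hbb-bt passed as lower. The fibroblast gene Col1a1 passed as higher without WGP replicate 1 and without WGP replicate 3, and the mesothelial gene Lrrn4 without WGP replicate 3.

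In the table of RefSeq promoter sequences used here (GRCm38.p6, 250 bases before to 50 after the gene's start) 8 of the 10 genes were found, and Scarb1 and Tgm2 were not in that table. Because 5 members fell together, their promoters were searched on both strands for 8 short motifs, chosen after the values were seen: the MAF core TGCTGA, the AP-1 site TGANTCA, which can overlap it, the PU.1 core GAGGAA, the GAS site TTCNNNGAA, an interferon-type element, the C/EBP-type TTGCNNCAA, an NF-κB-type motif and the E-box CACGTG. Of the 5 members that fell, 3 (Timd4, Stab1 and Cd36) held the MAF core, which 19.5% of all 32851 promoters hold, and Gas6 held none of the 8 motifs. The PU.1 core, in 28.3% of all promoters, was found in Stab1, Axl and Mfge8, the GAS site, in 8.30%, in Pros1, and the NF-κB-type motif, in 20.7%, in Mertk, Axl, Pros1 and Cd36. The AP-1 site, the interferon-type element, the C/EBP-type motif and the E-box, in 7.81%, 3.44%, 2.08% and 7.15% of all promoters, were in none of the 8. The 170 bases before the start of the 3 genes with the MAF core are given with that motif, or its reverse complement, in capitals, for Timd4 at chr11:46810629-46810798 on the plus strand, for Stab1 at chr14:31168642-31168811 on the minus strand and for Cd36 at chr5:17835897-17836066 on the minus strand, where the RefSeq start lies inside the gene as GENCODE places it. A match describes these letters only.
Timd4: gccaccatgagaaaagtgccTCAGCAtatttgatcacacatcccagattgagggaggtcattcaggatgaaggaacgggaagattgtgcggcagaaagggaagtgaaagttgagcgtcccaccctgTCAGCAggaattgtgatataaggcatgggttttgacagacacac
Stab1: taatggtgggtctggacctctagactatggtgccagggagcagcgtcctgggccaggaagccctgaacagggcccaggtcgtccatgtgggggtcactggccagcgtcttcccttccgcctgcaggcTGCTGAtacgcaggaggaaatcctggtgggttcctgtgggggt
Cd36: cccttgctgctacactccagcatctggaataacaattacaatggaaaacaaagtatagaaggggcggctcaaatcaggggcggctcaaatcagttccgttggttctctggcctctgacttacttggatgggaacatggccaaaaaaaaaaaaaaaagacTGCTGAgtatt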

How the data were processed

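According to the authors, reads were mapped with STAR 2.6 (mm10, GRCm38.p6) and summed by Ensembl gene with HTSeq 0.10.0, and the deposited values are raw counts. The annotation release, strand setting and handling of duplicate reads are not given in the sources used here. Gene symbols, lengths and coordinates came from GENCODE vM21. WGP was tested against PBS in R 4.3.3 with the quasi-likelihood test of edgeR 4.0.16 after TMM normalization, over the 14429 protein-coding genes whose RLE-normalized counts sum to 10 or more, with Benjamini-Hochberg adjustment over all of them. The standard error is the absolute log2 fold change divided by the square root of F, and 95% intervals use the test's degrees of freedom. CPM, ratios and exact permutation tests (scipy 1.17.1) were computed from these counts. The script was tested on simulated data. Reads carry no molecular identifiers, so low counts are not independent molecules.

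Libraries were grouped by the treatment label. The study describes each sample as an independent animal, which the labels do not state, so p-values measure the spread between these libraries. The members and gene lists were chosen with earlier results of these data known. Named are all 10 members, the pathway genes that passed, of each marker list its most abundant gene per length and defining genes at 0 (for resident macrophages and Ly6C-high monocytes further genes; a few marker genes are not reported here), and the 5 genes most like Gas6; others are named as the few that passed in a list or for a value beside a member, and were chosen after their values were seen. Alternatives covered 3 other scalings, DESeq2 1.42.0 and limma-voom (limma 3.58.1), other filters and features, thinned counts, a replicate block, a covariate for Y-linked counts, other thresholds and libraries left out.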

Additional observations from a re-analysis of the deposited data

How the results depend on the processing

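Each of the 10 log2 fold changes was recomputed under 19 alternatives, and 163 of 190 values kept the direction and side of the threshold. Gas6, Pros1, Cd36, Timd4, Stab1 and Tgm2 passed in all 19. Mfge8 passed in 6 (library totals, DESeq2, the replicate block, without PBS replicate 1, without WGP replicate 2 and without both) and Scarb1 in 4 (DESeq2, at least 10 counts in every library, without WGP replicate 2 and without both libraries), so that the number of uptake genes that rose was 2 with DESeq2, with at least 10 counts in every library and without both libraries, and ranged from 1 to 2 when each library was left out in turn. Mertk changed sign to -0.00723 with upper-quartile scaling, -0.0688 with library totals and -0.32 without both libraries, and ranged from -0.22 to 0.43 when each library was left out. Axl changed sign to -0.00704 with RLE, -0.00705 with DESeq2, -0.00874 with at least 10 counts in every library, -0.0274 with upper-quartile scaling, -0.0947 with library totals, -0.00090 with thinned counts and -0.0498 without both libraries, and ranged from -0.12 to 0.0845 when each was left out. The log2 ratio of Mertk to Axl ranged from -0.16 to 0.41 when each was left out. The cause of these changes was not tested; the values without a library rest on fewer samples.

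The number of genes passing was 2071, 1369 with 1 or more log2 units required and 1177 at an adjusted p of at most 0.01, and ranged from 1417 (without PBS replicate 2) to 2203 when each library was left out. With the replicate block 1947 genes passed, among them 1 rise and 6 falls of the 10 genes. Deviations of same-numbered libraries correlated at 0.0486, -0.0798 and 0.0698, and not every library correlated best with its own number, so the numbers were not taken to pair the samples. Lengths from the union of exons moved 7 of 20 levels per length by more than 1 SD. Depth limits genes with few counts, such as Tyro3.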
